A study of Homo sapiens with 4 samples.

Results

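The genes described here lie on the long arm of human chromosome 3, in bands 3q26.1 and 3q26.2: BCHE, PDCD10, SERPINI1, GOLIM4, MECOM, SEC62, PHC3, PRKCI, SKIL and CLDN11, 10 of the 78686 features in the count tables. BCHE and CLDN11 were chosen by their counts, because they have counts in wild-type (WT) HEK293 libraries and none in libraries of a HEMK1 knockout (KO) clone, so their counts are given as a description with no test. The other 8 are listed neighbours that lie between that pair. They are not all of its genes: 13 genes between BCHE and CLDN11 were tested, and the 5 that are not listed (ZBBX, MYNN, ENSG00000269984, LRRC34 and GPR160) are given with the other genes of the neighbourhood; LRRC34 and GPR160 were named after their values were seen. Polyadenylated RNA was sequenced from HEK293, a human line of embryonic kidney origin that carries adenovirus sequence and is aneuploid, as 2 WT and 2 KO libraries. HEMK1 encodes a methyltransferase of mitochondrial release factors, and the KO cells were edited with Cas9 and 2 pooled guides, sorted as single mCherry-positive cells and grown out. The labels name 1 clone, 1F8, for the KO RNA, and neither a second clone nor a sorted control, so what belongs to the HEMK1 edit and what belongs to that clone cannot be told apart. All libraries came from cells in the same high-glucose medium, and the labels speak of biological replicates without saying how the cultures were separated, so p-values measure only the spread between these libraries.

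As background, band 3q26 is one of the chromosome segments most often gained in squamous and ovarian carcinomas, and MECOM, PRKCI, SKIL and SEC62 are studied as drivers there. The genes share a neighbourhood, not a pathway. BCHE encodes butyrylcholinesterase, a secreted esterase that the liver releases into plasma and that also occurs in glia. CLDN11 encodes a claudin, a membrane protein that builds the tight junctions of myelin and of Sertoli cells. The 8 listed neighbours encode a scaffold of kinases, a protease inhibitor, a Golgi protein, a transcription factor, a translocation factor, a polycomb subunit, an atypical protein kinase C and a SMAD corepressor.

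The promoters of BCHE and CLDN11, the 2 genes with no KO counts, and of SKIL, the nearest tested gene to CLDN11 and one with counts in every library, are shown for their contrast in CG dinucleotides, the sites of DNA methylation in mammals. Each is the RefSeq window of 300 bases on GRCh38.p14, with 250 bases before and 50 after the gene's start, 5′ to 3′ on the gene's strand and with each CG in capitals. The windows are chr3:165837374-165837673 on the minus strand for BCHE, chr3:170418618-170418917 on the plus strand for CLDN11 and chr3:170357465-170357764 on the plus strand for SKIL.
BCHE: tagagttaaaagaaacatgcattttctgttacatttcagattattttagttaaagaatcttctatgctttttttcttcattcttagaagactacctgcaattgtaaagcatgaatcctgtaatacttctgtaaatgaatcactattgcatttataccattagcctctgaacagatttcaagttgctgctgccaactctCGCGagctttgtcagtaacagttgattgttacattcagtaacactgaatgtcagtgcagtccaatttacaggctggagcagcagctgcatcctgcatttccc
CLDN11: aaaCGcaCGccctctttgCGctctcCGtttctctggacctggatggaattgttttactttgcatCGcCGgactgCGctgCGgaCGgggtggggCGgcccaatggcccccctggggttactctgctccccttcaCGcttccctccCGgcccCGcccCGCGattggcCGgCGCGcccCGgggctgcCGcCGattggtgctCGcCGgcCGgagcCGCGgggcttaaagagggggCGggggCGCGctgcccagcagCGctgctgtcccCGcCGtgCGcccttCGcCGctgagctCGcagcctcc
SKIL: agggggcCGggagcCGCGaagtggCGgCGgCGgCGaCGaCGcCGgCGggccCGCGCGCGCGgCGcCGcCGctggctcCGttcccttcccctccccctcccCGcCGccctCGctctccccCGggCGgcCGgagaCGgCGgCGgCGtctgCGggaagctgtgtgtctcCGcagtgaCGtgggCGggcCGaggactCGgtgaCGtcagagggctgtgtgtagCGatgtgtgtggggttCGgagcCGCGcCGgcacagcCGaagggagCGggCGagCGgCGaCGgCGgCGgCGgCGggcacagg

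The 2 promoters with no KO counts behind them were unlike each other. BCHE had 2 CG dinucleotides and 36.7% G and C, the fewest of the 10 genes, and 18.2% of the 35116 RefSeq promoter windows of this length held as few or fewer. CLDN11 had 36 CG dinucleotides and 72% G and C, and 12.7% of windows held as many or more. SKIL had 52, a number reached by 0.78% of windows. The other 7 genes had between 14 (SERPINI1) and 29 (GOLIM4), against a median of 14 over all windows. Among motifs searched on both strands, CCAAT occurred 3 times in CLDN11 and 1 time in BCHE, against at least 1 in 34.6% of all windows. The letters GGGCGG, known as the GC box, occurred 3 times each in CLDN11 and SKIL and not in BCHE (45% of windows), and TATAAA occurred 1 time in BCHE and not in CLDN11 or SKIL (11.5%). These are matches of letters, and methylation was not measured.

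**Figure D1:**
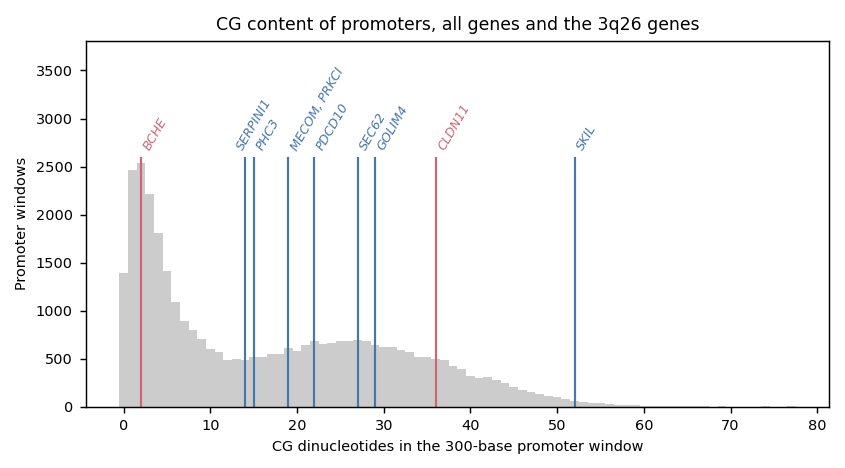
Number of CG dinucleotides in the 300-base promoter window (horizontal axis) over 35116 RefSeq windows (grey bars, number of windows), with vertical lines at the 10 genes of 3q26, red for BCHE and CLDN11 and blue for the other 8. BCHE sits at 2 and CLDN11 at 36, on either side of the median of 14.

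Depth was modest, with 2476471 and 2671594 counts in genes for WT replicates 1 and 2, and 2856784 and 3202039 for the KO replicates. Both WT libraries held HEMK1 reads, 6 and 9, as did the KO libraries, 1 and 7, too few to check the labels. Of 10 markers of HEK293 cells, 8 were detected, and PAX2 and SIX2 were at 0 in all 4 libraries. Together they summed to 406.6 and 440.9 CPM in WT and 295.8 and 249.5 CPM in KO libraries (scaled by library totals), with SOX11 at 207 and 329 counts in WT and 107 and 73 in KO, and their part in the results was not tested. WT replicate 2 stood farther from the KO libraries than WT replicate 1 did: chi-square per degree of freedom across genes was 7.42 and 7.40 for its pairs with the 2 KO libraries, where WT replicate 1 gave 4.90 and 4.74. The pair of WT libraries gave 5.01 and the pair of KO libraries 5.38. Of the 10670 genes tested in the KO against WT comparison, 5 were called as higher and 30 as lower in KO, with a threshold of 0.05 on the Benjamini-Hochberg adjusted p of edgeR's quasi-likelihood test. That is 0.328% of tested genes in either direction, 0.0469% higher and 0.281% lower. All 10 of the 3q26 genes passed the filter on low counts, BCHE and CLDN11 through the WT libraries alone.

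BCHE (ENSG00000114200.10, minus strand, chr3:165772904-165837472 in GENCODE 29 on GRCh38) was counted 20 and 25 times in WT replicates 1 and 2 and 0 times in both KO libraries. As CPM, counts per 1000000 of the TMM-scaled library size, these were 8.21 and 9.17 in WT, a mean of 8.69 ± 0.68 (SD, n = 2). The WT libraries agreed closely for so low a gene, and no read of either KO library was assigned to it. At the WT rate the KO libraries would hold 52.7 counts. A bound was set from a floor of 3 counts over the KO group, equal to 0.496 CPM. The BCHE rate measured in WT libraries was 17.6-fold above that floor. Without WT replicate 2 that bound was 16.5. In bulk RNA, fewer cells with BCHE transcripts and less BCHE RNA per cell cannot be told apart. The floor covers only the counting error of the KO libraries. It leaves out that of the WT counts, and PCR copies were not told apart by molecular identifiers.

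CLDN11 (ENSG00000013297.12, plus strand, chr3:170418865-170454733) was counted 10 and 16 times in WT and 0 times in both KO libraries. These were 4.11 and 5.87 CPM in WT, a mean of 4.99 ± 1.25 (SD, n = 2). The WT rate would give 30.4 counts over the KO libraries. CLDN11 had a measured WT rate 10.2-fold above the same floor, and 8.27-fold above it without WT replicate 2. With fewer WT counts than BCHE, its bound is the weaker one. SLC7A14, a gene of the cationic amino acid transporter family and the next coding gene beyond CLDN11, lies just outside the rule, at 0 in WT replicate 1, 13 counts in WT replicate 2 and 0 in both KO libraries. It was named after its values were seen. From 2 Mb before BCHE to 2 Mb after CLDN11 lie 110 annotated genes, and 30 of the 100 that are not among the 10 had counts. Of these 30, 9 (30%) had WT counts and none in KO, and 2 (6.67%) had KO counts and none in WT, against 15.9% and 12.7% of the 28313 features with counts. Apart from SLC7A14, each of these genes had 1 or 2 counts in all.

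**Figure D2:**
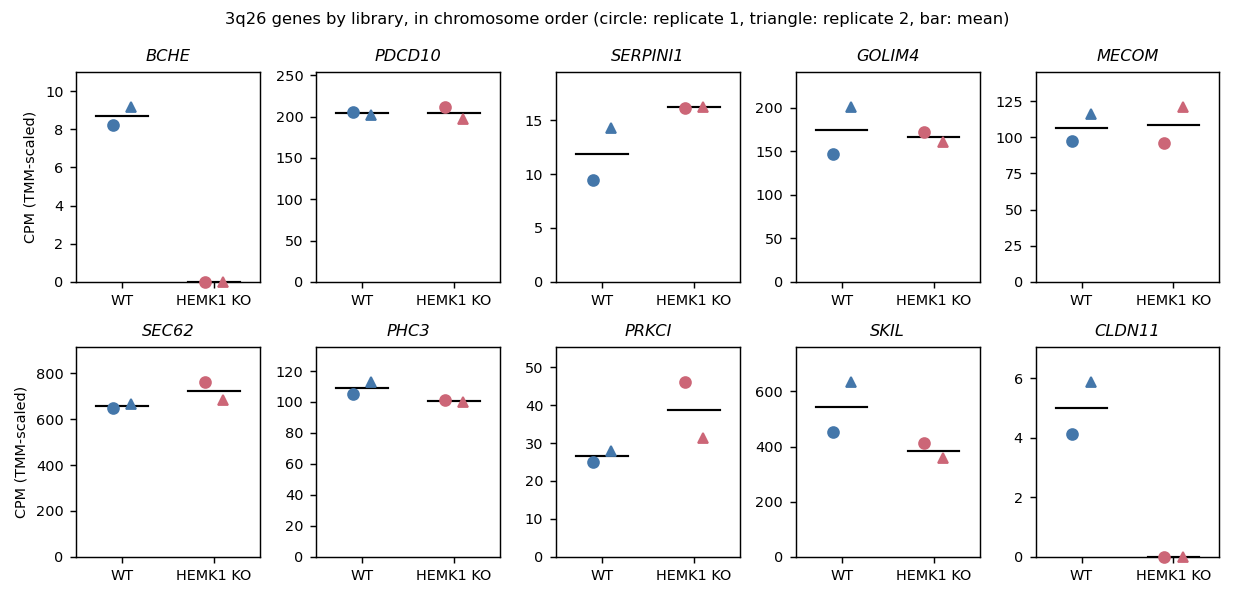
TMM-scaled CPM (vertical axes, each from 0) of the 10 genes in chromosome order, in WT (blue) and HEMK1 KO (red) libraries, with replicate 1 as a circle, replicate 2 as a triangle and the group mean as a bar. BCHE and CLDN11 are at 0 in both KO libraries, while the other 8 genes have counts in all 4.

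BCHE and CLDN11 were chosen for having no KO counts, so the genes of like WT counts are given for scale only. Of the 1806 other genes with 26 to 45 counts over the WT libraries, the range from CLDN11 to BCHE, the median over the KO libraries was 37 counts, and 3 genes (0.166%) had 0. These were CSMD3, whose 27 WT counts all came from replicate 2, and the pseudogenes RPS20P2 (20 and 22 WT counts) and RPL4P5 (12 and 15). CSMD3 was named after its values were seen. CSMD3 was the 1 gene at 0 among the 1188 other protein-coding genes of that range (0.0842%).

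The genes most like BCHE and CLDN11 were taken as those with at least 5 counts in each WT library and 0 in both KO libraries, a likeness over 4 libraries. They numbered 22 of 11678 (0.188%), the chosen pair included, and 20 of 11668 (0.171%) without the 10 genes, against 4 of 11911 (0.0336%) with the groups exchanged. Of the 22, 9 were protein-coding, 10 were processed pseudogenes and 3 had no GENCODE 29 entry. BCHE had the most WT counts among the coding ones and CLDN11 the next most. ENSG00000203396, a processed pseudogene of chromosome 9, led the list with 228 and 325 WT counts, followed by RPL7P12 (31 and 25) and RPS26P20 (22 and 24). Counts of pseudogenes are uncertain, because their reads may match a parent gene as well. The coding genes next after CLDN11 were SULT1C4, a sulfotransferase, with 6 and 16 WT counts, and GREM1, a secreted antagonist of bone morphogenetic proteins, with 8 and 13. On chromosome 3, the other genes of this kind were PET100P1 (10 and 11) and RPL24P6 (12 and 8), processed pseudogenes that lie beyond the window towards the end of the long arm; RPL24P6 was named after its values were seen.

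**Figure D3:**
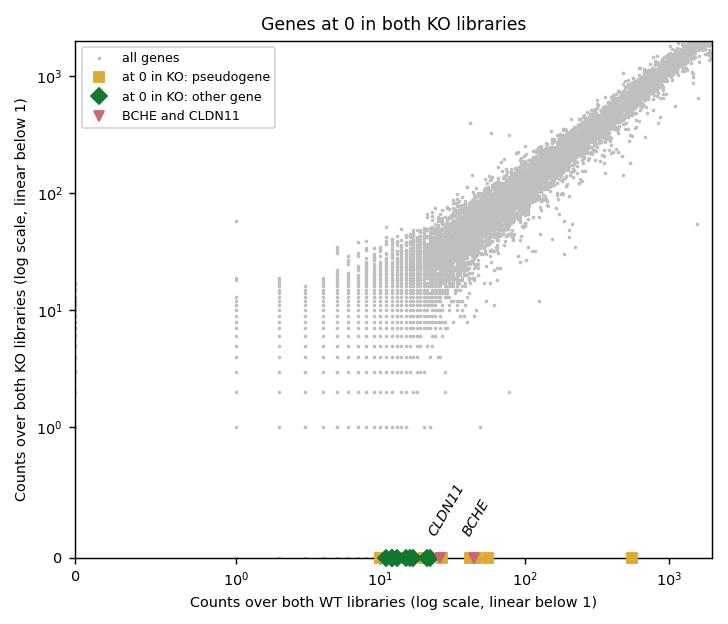
Counts over both KO libraries against counts over both WT libraries for every gene up to 2000 counts (grey, log axes that are linear below 1), with the 22 genes that have at least 5 counts in each WT library and 0 in both KO libraries drawn on the lower edge. Among these 22, BCHE (45 WT counts) and CLDN11 (26) are the coding genes farthest to the right.

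The 8 listed neighbours gave no call: 0 of 8 passed the test over all genes, where 0.328% of tested genes did. Their log2 fold changes of KO over WT ran from −0.50 (SKIL) to 0.54 (PRKCI), with a median of 0.01, against a median of 0.00919 over all tested genes. Over all 13 tested genes between BCHE and CLDN11 the values ran from −0.91 (ZBBX) to 0.54, with 0 called. At an unadjusted p under 0.05 there were 2 of 8, PRKCI and SKIL, in opposite directions, against 8.43% of tested genes. Both KO libraries lay above both WT libraries for SERPINI1, SEC62 and PRKCI, as for 21.4% of tested genes, and below for PHC3 and SKIL, as for 17.8%. A lack of calls has little weight for small changes. In simulated counts for the same 10670 genes, edgeR recovered 3.66% of changes of 1.5-fold, 32.1% of those of 2-fold and 82.3% of those of 4-fold. The changed genes were drawn at random from all tested genes, so these rates are averages and not those of the 8 neighbours. Of the 79 genes called in the simulation, 7 were not among the changed ones.

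**Figure D4:**
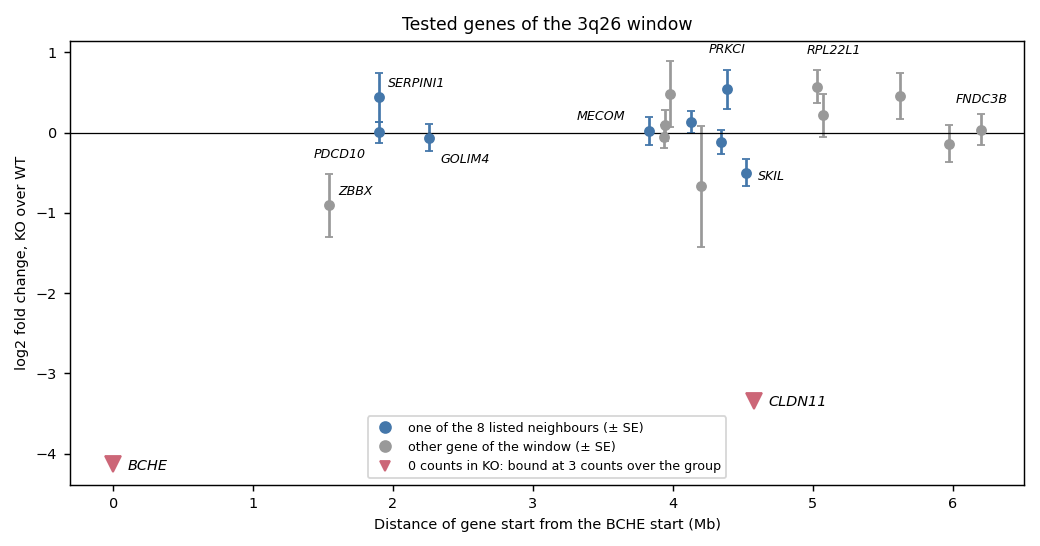
Log2 fold change of KO over WT (vertical axis; bars, SE) of the 20 tested genes of the window against the distance of each gene's start from that of BCHE in Mb. Triangles place BCHE and CLDN11, which were chosen for having no KO counts, at their bounds of −4.13 and −3.34. These bounds come from the floor of 3 counts and are not fitted values. The 13 tested genes between the pair lie from −0.91 to 0.54.

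PDCD10 and SERPINI1 stand head to head, with starts 304 bases apart. PDCD10, a scaffold of germinal centre kinases whose loss causes cerebral cavernous malformations, had 206 and 201 CPM in WT and 212 and 197 CPM in KO libraries. The groups overlapped and the log2 fold change was 0.00078 ± 0.13 (SE; edgeR adjusted p = 1.00). SERPINI1, or neuroserpin, which inhibits tissue plasminogen activator, had 9.44 and 14.3 CPM in WT and 16.2 and 16.3 CPM in KO libraries (0.44 ± 0.30; edgeR adjusted p = 0.744). Both KO values lay above both WT values, by less than the distance between the WT libraries. The log2 fold change was 0.18 without WT replicate 1 and 0.74 without WT replicate 2. Per kb of exons the WT level of PDCD10 was 62.2 ± 1.00 CPM and that of SERPINI1 4.91 ± 1.42 (SD, n = 2), so these divergent neighbours differed in level.

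GOLIM4, a membrane protein that cycles between Golgi and endosomes and is degraded when manganese is high, had 147 and 201 CPM in WT and 173 and 161 CPM in KO libraries (−0.06 ± 0.17; edgeR adjusted p = 0.958). Its KO libraries lay inside the WT range, and the log2 fold change was −0.27 without WT replicate 1 and 0.15 without WT replicate 2. MECOM, a zinc-finger regulator of blood stem cells that is rearranged in myeloid leukaemia, had 97.7 and 116 CPM in WT and 96.1 and 121 CPM in KO libraries (0.02 ± 0.17; edgeR adjusted p = 0.992). SEC62, which helps proteins enter the endoplasmic reticulum and serves as a receptor for its turnover, had 651 and 668 CPM in WT and 763 and 684 CPM in KO libraries (0.13 ± 0.14; edgeR adjusted p = 0.864). PHC3, a polyhomeotic subunit of polycomb repressive complex 1, had 105 and 113 CPM in WT and 102 and 99.7 CPM in KO libraries (−0.12 ± 0.15; edgeR adjusted p = 0.908). For SEC62 and PHC3 the groups did not overlap, but the log2 fold changes were smaller than their SE, and that of SEC62 was 0.02 without KO replicate 1 and 0.21 without KO replicate 2.

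PRKCI and SKIL, the last 2 tested genes before CLDN11, had the largest differences of the 8, and neither passed the test. PRKCI, the atypical kinase that marks the apical side of polarised cells, had 25.04 and 27.9 CPM in WT and 46.1 and 31.2 CPM in KO libraries (0.54 ± 0.24; edgeR adjusted p = 0.585). KO replicate 1 carried most of that difference, and without it the log2 fold change was 0.20. Without KO replicate 2 it was 0.80. SKIL, also called SnoN, which represses SMAD targets and is itself destroyed and then re-induced by TGF-beta, had 453 and 635 CPM in WT and 411 and 358 CPM in KO libraries (−0.50 ± 0.17; edgeR adjusted p = 0.415). WT replicate 2 was the highest, and without it the log2 fold change was −0.27. Without WT replicate 1 it was −0.725. In the authors' deposited table SKIL had −0.50 and an adjusted p of 1, and PRKCI 0.54 and an adjusted p of 1. SKIL ends 22.0 kb before CLDN11 begins, and PRKCI ends 51.7 kb before SKIL.

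Within WT cells the genes spanned a wide range of levels per exon length. SEC62 was highest at 83.2 ± 1.53 CPM per kb (SD, n = 2), above SKIL at 69.9 ± 16.5 and PDCD10 at 62.2, whose WT libraries overlapped those of SKIL. GOLIM4 (37.5 ± 8.24), MECOM (11.7 ± 1.42) and PHC3 (6.45 ± 0.33) followed without overlap. SERPINI1 and PRKCI (4.53 ± 0.34) overlapped, and BCHE at 2.82 ± 0.22 and CLDN11 at 1.34 ± 0.33 were last, each apart from its neighbour in the order. Exon lengths are unions over GENCODE 29 transcripts, which lowers the value of genes with many alternative exons. The genes with no KO counts were thus the lowest 2 of the 10 in WT cells.

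**Figure D5:**
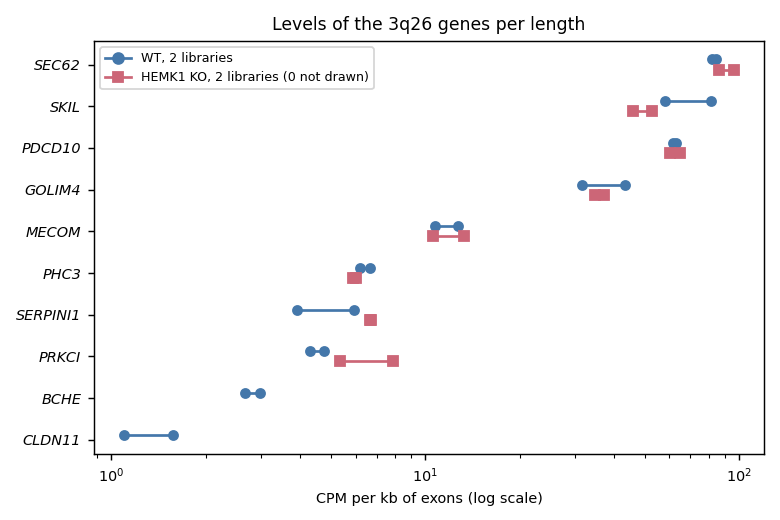
Level of each gene per kb of exons (horizontal log axis, CPM per kb), ordered by the WT mean, with the 2 WT libraries as blue circles and the 2 KO libraries as red squares joined by lines. BCHE (2.82) and CLDN11 (1.34) have the lowest WT means, and their KO values of 0 are not drawn.

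The other genes of the window gave no call either. Of the 100 window genes that are not among the 10, 10 were tested, 0 were called in either direction (2 at an unadjusted p under 0.05; 0 by DESeq2), and their median log2 fold change was 0.06. ZBBX, the tested gene nearest to BCHE, had 8.62 and 8.81 CPM in WT and 4.13 and 5.10 CPM in KO libraries (−0.91 ± 0.40, SE; edgeR adjusted p = 0.564). It was named after its values were seen. LRRC34 was at 0.48 ± 0.41 and GPR160 at −0.67 ± 0.76 on the log2 scale, with edgeR adjusted p-values of 0.819 and 0.886. Of the 5 with the highest CPM, MYNN, a zinc-finger protein, had 133 and 135 CPM in WT and 136 and 123 CPM in KO libraries. RPL22L1, a paralogue of a ribosomal protein, had 58.3 and 41.1 CPM in WT and 69.9 and 77.4 CPM in KO libraries (0.57 ± 0.20; edgeR adjusted p = 0.446). PLD1, a phospholipase, was at −0.14 ± 0.23, the antisense RNA ENSG00000269984 at 0.09 ± 0.19 and FNDC3B at 0.04 ± 0.19 on the log2 scale. The 98 tested genes beyond the window towards the end of the long arm had a median of 0.02, and 1 of them was called, as lower: RPL17P18, a processed pseudogene with 100 and 103 counts in WT and 20 and 28 in KO libraries (−2.31 ± 0.26, SE; edgeR adjusted p = 0.00270), named after its values were seen. The 481 before the window had a median of 0.01, with 0 called. Over all tested genes 0.328% were called. At an unadjusted edgeR p under 0.05 there were 32 of these 481 and 10 of the 98 beyond the window, against 8.43% of all tested genes. No annotated gene that overlaps one of the 10 had more than 3 counts in any library, but the strand setting is unknown, and reads of overlapping genes on opposite strands cannot be told apart.

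Few genes that work with BCHE and CLDN11 had enough counts to be tested. Of 28 genes for acetylcholine synthesis, transport, breakdown and reception, 12 were at 0 in all libraries, 4 were tested and 0 were called, with a median log2 fold change of 0.01. ACHE, the related acetylcholinesterase, named after its values were seen, had 1 count, in WT replicate 1. CHRM3, a muscarinic receptor and the member with the smallest p, was at −0.31 ± 0.30 (SE; edgeR adjusted p = 0.850). Of 23 other claudins, 14 were at 0 and 1 was tested, CLDN12, with 183 and 210 CPM in WT and 175 and 184 CPM in KO libraries (−0.14 ± 0.14; edgeR adjusted p = 0.861). Of 21 further tight junction genes, 10 were tested and 0 called (median 0.14), and occludin, OCLN, had 4.11 and 8.07 CPM in WT and 10.7 and 14.0 CPM in KO libraries (1.00 ± 0.40; edgeR adjusted p = 0.510).

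The partners of the other genes gave 0 calls as well. Over all 11 lists 136 genes were tested and 0 were called, against 0.328% of all tested genes. Of the 136, 12 had an unadjusted edgeR p under 0.05, against 8.43% of all tested genes. The median log2 fold change of the 136 was 0.05, and DESeq2 also called 0. For PDCD10, 14 partners in the cavernous malformation and STRIPAK complexes had a median of −0.04, and STK24, a kinase it binds, was at −0.59 ± 0.25 (SE; edgeR adjusted p = 0.557). For SERPINI1, 9 plasminogen activators, inhibitors and related genes had a median of −0.24, with SERPINB9 at −0.64 ± 0.45 (adjusted p = 0.755). For GOLIM4, 22 Golgi genes had a median of 0.14, and the tether GOLGB1 had 131 and 109 CPM in WT and 215 and 176 CPM in KO libraries (0.70 ± 0.16; edgeR adjusted p = 0.138). GOLGB1 passed the threshold without KO replicate 2 (0.84; edgeR adjusted p = 0.00540), where CBX6, a polycomb subunit, did so too (−0.80; edgeR adjusted p = 0.0402); CBX6 was named after its values were seen.

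For MECOM, 6 related PRDM genes and corepressors had a median of −0.07, with the corepressor CTBP1 at −1.02 ± 0.44 (SE; edgeR adjusted p = 0.562). For SEC62, 25 genes of protein entry to the endoplasmic reticulum had a median of 0.07, with the channel subunit SEC61A2 at 0.52 ± 0.19 (adjusted p = 0.446). The 16 polycomb genes tested beside PHC3 had a median of 0.11, with BMI1 at 0.52 ± 0.25 (adjusted p = 0.594). Beside PRKCI, 9 polarity genes had a median of 0.06, and PARD6G, an adaptor that binds the kinase, had 2 and 5 counts in WT and 16 and 15 in KO libraries (1.89 ± 0.60; edgeR adjusted p = 0.352). The 20 genes of TGF-beta and SMAD signalling tested beside SKIL had a median of −0.05, with SMAD9 at −0.44 ± 0.20 (adjusted p = 0.589).

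Defining markers of the cell types known for BCHE or CLDN11 were at 0 in WT and KO libraries alike, and other markers of those types were detected. All 8 hepatocyte markers together summed to 1.62 and 0 CPM in WT and 1.05 and 0.312 CPM in KO libraries (scaled by library totals), with ALB, APOB, FGB, SERPINA1 and TTR at 0 in every library. The 7 oligodendrocyte markers summed to 60.2 and 50.9 CPM in WT and 26.3 and 43.7 CPM in KO libraries, mostly from CNP, with MAG, MOG and OLIG2 at 0. The 6 Sertoli markers summed to 83.2 and 75.2 CPM in WT and 58.8 and 79.0 CPM in KO libraries, mostly from CLU, with AMH, FSHR and INHA at 0. The 8 fibroblast markers summed to 29.5 and 27.3 CPM in WT and 44.1 and 32.2 CPM in KO libraries, with COL1A2 and DCN at 0. All 9 blood markers were at 0 in WT and summed to 3.15 and 9.68 CPM in KO libraries, of which LYZ gave 0 and 13 counts and HBB 4 and 11, and their part in the results was not tested.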

How the data were processed

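Per the submitters' processing notes, the tools were FastQC, Trimmomatic, STAR, HTSeq and DESeq2, and the genome hg38; for versions, annotation release, strand setting and filters, the answer is not given in the sources used here. Per the labels' protocols, a low-input kit was given 100 ng of total RNA. Each deposited sheet holds whole-number counts per gene with no normalization, and was taken by sheet name to the library of that title. The table of KO over WT that the authors deposited holds a log2 fold change with its standard error, a base mean (a signal, counts over size factors), a Wald score and both a raw and an adjusted p-value, per the file headers.

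Identifiers were matched without version to a table of names (61463 features, 98.3% of counts) and to GENCODE 29 on GRCh38 (57288 features). All features went through filterByExpr at a minimum count of 10, TMM scaling (factors 0.980 to 1.02) and a robust quasi-likelihood fit on genotype alone in edgeR 4.0.16 (R 4.3.3), with calls at an adjusted p under 0.05. The SE of a log2 fold change is its size divided by the square root of the F statistic. No library repeated another within sampling noise, by chi-square per degree of freedom of each pair. The fit was tested on simulated counts. DESeq2 1.42.0, RLE factors, library totals, no filter, a replicate block and leaving out each library were the alternatives.

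The members and lists were chosen with earlier results of these data known. Named genes were the 10 members, called or the 5 most abundant other window genes, in each of 11 partner lists the called members or else the 1 with the smallest p, the 10 genes most like BCHE and CLDN11 by WT counts, and HEMK1; others are marked as named after their values were seen. All 10 members matched RefSeq promoter windows on GRCh38.p14.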

Additional observations from a re-analysis of the deposited data

How the results depend on the processing

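The counts of called genes over the whole table (5 higher, 30 lower) moved with the settings: 31 and 125 with no filter on low counts, 29 and 111 with the replicate block, and from 1 to 25 higher and from 3 to 164 lower when 1 library was left out (leaving out the first WT library gave 4 and 3, the other WT library 1 and 13, the first KO library 18 and 80, and the other KO library 25 and 164). For the 8 listed neighbours, and for the other genes of the window, 0 were called in each of the 9 alternatives, while the partner lists gave 1 call with no filter and 1 with the replicate block, GOLGB1 both times (edgeR adjusted p = 0.00691 and 0.00622), and between 0 and 2 without 1 library. Of 72 recomputed log2 fold changes of the 8 genes, 63 kept their direction and 9 changed it, all of genes close to 0. PDCD10 became −0.0157 with DESeq2 and with RLE factors, −0.00335 with library totals and −0.000137 with the replicate block, and ran from −0.0855 to 0.0576 without 1 library; GOLIM4 ran from −0.27 to 0.15 and MECOM from −0.15 to 0.15. The cause was not tested. The bounds of BCHE (17.6-fold) and CLDN11 (10.2-fold) became 9.12 and 5.27 when KO replicate 1 was left out, and 8.44 and 4.88 for KO replicate 2, since the floor of 3 counts is then set against fewer reads. Replicate numbers are shared between the groups, and deviations of same-numbered libraries correlated at −0.0351 across genes. Such a value cannot tell whether same-numbered cultures were handled together. At this depth, a gene at the WT level of CLDN11 gives 10 to 16 counts a library.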

Other observations

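The opposite pattern, at least 5 counts in each KO library and 0 in both WT libraries, was held by 4 genes. POSTN, which encodes the matrix protein periostin (7 and 5 KO counts), DDX47, an RNA helicase gene (6 and 7), and the long non-coding LINC01833 (8 and 5) lie outside chromosome 3. ENSG00000307033.1 (6 and 11) has no symbol and no position in the annotation used. They were named after their values were seen, and each lies near the limit that the filter on low counts sets.

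Among the less abundant coding genes that shared the pattern of BCHE and CLDN11 were TENM1, a teneurin of neuronal contacts (7 and 10 WT counts), COL6A3, a collagen chain (7 and 8), and FASN, the fatty acid synthase gene (10 and 6), all named after their values were seen. Leaving out BCHE and CLDN11, which were chosen for the pattern, it was held by 2 of 640 genes of chromosome 3 with at least 5 counts in each WT library (0.312%), against 20 of 11668 over the whole table (0.171%).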
